A study of Homo sapiens with 9 samples.

Results

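The synthetic ligand GC-1 was set against the thyroid hormone T3 (triiodothyronine) at the same dose and time in HepG2, an established human hepatoma line. The comparison rests on 6 of the 9 arrays of the HepG2 experiment, the 3 whose titles name GC-1 and the 3 whose titles name T3, chosen by title alone. All cells were moved to medium with serum depleted of thyroid hormone, and each ligand was given at 10 nM for 24 h. The remaining 3 arrays came from cells that received vehicle in the same medium, and they serve here as the level without ligand. Whether the line carried an introduced receptor is not given in the sources used here, and mouse liver samples that the series' design also mentions were not analysed here. Nothing in the labels ties the replicates of a group to separate cultures, and the p-values below are measured against a spread that could be purely technical.

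Thyroid hormone acts through nuclear receptors, encoded by THRA and THRB, that sit on DNA with a retinoid X receptor and exchange corepressors for coactivators when ligand binds. In the liver the beta receptor is the main form, and its target genes govern glucose output, fatty acid use, cholesterol handling and the hormone's own deiodination. GC-1, or sobetirome, is an agonist that prefers the beta receptor. Compared with T3 it lacks all iodine, with methyl groups on the inner ring and an isopropyl group on the outer ring where T3 has iodine, a carbon bridge between the rings in place of oxygen, and an acid side chain without the amino group. The study asked how far the genes regulated by these ligands coincide.

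Signal was read as RMA values, which are summarised array signals on a log2 scale, where a difference of 1 stands for a doubling. The 22215 probe sets that are not array controls stood for 11963 genes with a single symbol. T3 replicates 1 and 2 had a wider spread of signal, with an interquartile range of 2.99 and 2.97, than T3 replicate 3 at 2.88, the GC-1 arrays at 2.83 to 2.85 and the vehicle arrays at 2.87 to 2.88. The median range over the 3 arrays of a group was 0.17 in T3, 0.12 in GC-1 and 0.12 in vehicle. T3 replicate 3 lay nearer to the GC-1 mean than to the mean of the other T3 arrays in 59.4% of probe sets, against 38.8% and 47.1% for T3 replicates 1 and 2. Estimated array weights were 0.30 for T3 replicate 3 and 0.78 to 1.71 for the other arrays. Genes that mark hepatocytes were high on all arrays, with mean levels of 12.06 to 14.44 over 8 genes including ALB and TTR, while 12 markers of blood, endothelial, fibroblast and bile duct cells had means between 4.93 and 11.11.

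Differences between GC-1 and T3 at 10 nM were small, and genes raised by the ligands were more often lower than higher with GC-1. Of 22215 probe sets none differed between GC-1 and T3 at an adjusted p under 0.05 in limma, which is 0% called. The smallest adjusted p was 0.143, for several probe sets that include those of SLC4A4 and ANGPTL8. At an unadjusted p under 0.05 limma held 3122 probe sets, 14.1% of all, with 1644 higher (7.4%) and 1478 lower (6.65%) with GC-1. With each array centred on its median the higher ones made up 39.1% of the unadjusted calls in place of 52.7%, and among probe sets with a mean signal of at least 6 they made up 38.0%.

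The sizes of the differences were small in these arrays. The absolute difference between GC-1 and T3 had a median of 0.07, a 90th percentile of 0.17 and a 99th percentile of 0.28, the last of which is 1.21-fold. A missed threshold is no evidence of equal action, so the intervals were examined as well. The 95% confidence interval of a difference reached a median of 0.15, or 1.11-fold, to either side, and it lay inside 1.5-fold on either side for 22175 probe sets (99.8%) and inside 1.2-fold for 15355 (69.1%). A difference of at least 1.5-fold was seen in 2 probe sets, to which the annotation gives no single gene. In the first of these the vehicle arrays alone ran from 6.73 to 7.98, and in the second from 6.40 to 7.68.

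Set against single T3 arrays, the difference in means exceeded the whole range of the 3 T3 values in 3981 probe sets (17.9%) and exceeded the range of the T3 and of the GC-1 arrays in 10.1%. The 3 GC-1 arrays lay wholly on one side of the 3 T3 arrays in 4006 probe sets (18%), above in 1756 (7.9%) and below in 2250 (10.1%). Leaving out T3 replicate 3 raised the number of calls from 0 to 338 (1.52%), with 157 higher (0.707%) and 181 lower (0.815%) with GC-1. In 183 of these 338, T3 replicate 3 itself still lay outside the GC-1 range on the side of the other T3 arrays. How often it did so over all probe sets was not counted, so the 183 lend the calls no support. No other single array, when left out, gave any call. With limma's trend and robust options, which let the spread depend on signal and limit the weight of variable probe sets, 22 probe sets were called (0.099%), 6 higher (0.027%) and 16 lower (0.072%), and 14 of them were also among the 338.

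Differences varied with the brightness of a probe set. The median of GC-1 minus T3 was 0.04 in the dimmest of 4 equal brightness classes and 0.04 in the next, and it was -0.03 and -0.04 in the third and the brightest. In the dimmest class 645 probe sets were higher and 122 lower at an unadjusted p under 0.05, while in the brightest 40 were higher and 602 lower. After quantile normalization of the deposited values the medians of the classes lay between -0.0017 and 0.0027. T3 replicates 1 and 2 had the wider spread of signal given above, and with that spread as a covariate GC-1 minus T3 became over 1.5 times smaller in 20 of the 108 named genes and changed sign in 15.

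**Figure D1:**
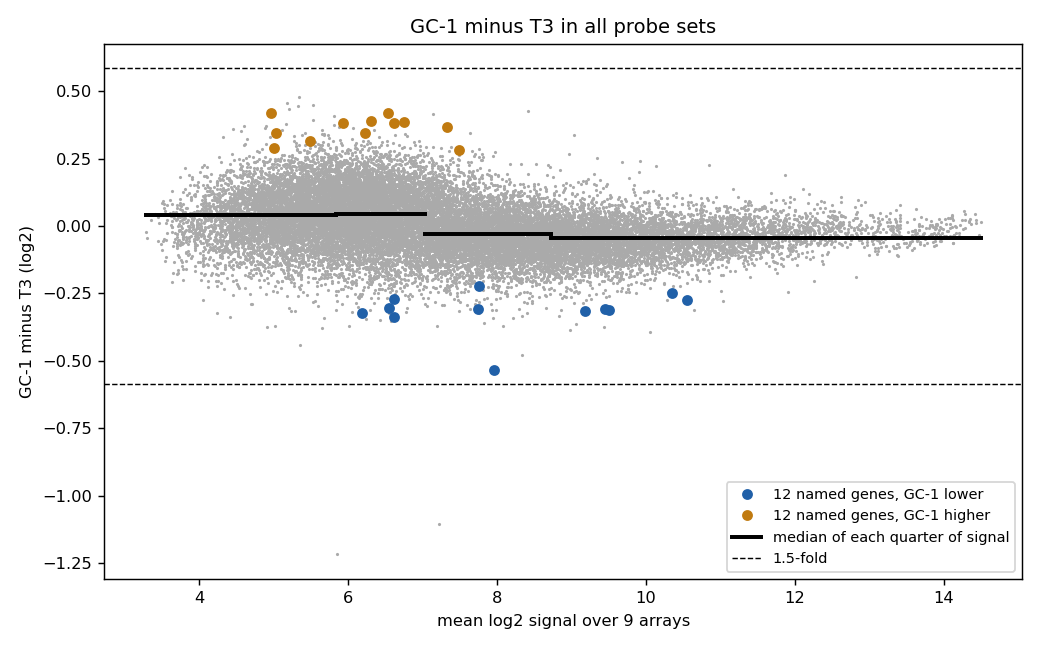
GC-1 minus T3 (log2, vertical axis) against the mean log2 signal over 9 arrays (horizontal axis) for 22215 probe sets, with the 12 named genes lower and the 12 higher with GC-1 in colour, the median of each of 4 brightness classes as black bars and 1.5-fold as dashed lines. The class medians pass from 0.04 at low signal to -0.04 at high signal, and 2 points lie below the lower 1.5-fold line.

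Genes that responded to ligand were chosen on the mean of the 6 ligand arrays against vehicle, a choice that gives GC-1 and T3 the same weight. At an adjusted p under 0.05 this mean was changed in 1228 probe sets (5.53%), raised in 806 (3.63%) and lowered in 422 (1.9%). Taken singly against vehicle, limma called 1222 probe sets with T3 (5.5%), 888 higher (4%) and 334 lower (1.5%), and 622 with GC-1 (2.8%), 403 higher (1.81%) and 219 lower (0.986%). These counts share the vehicle arrays and do not test whether the ligands differ. The interval of GC-1 minus T3 lay inside 1.5-fold for 1223 of the 1228. The 5 exceptions, named here after their values were seen, were G6PC1, PCK1, HAL, the cell adhesion gene CDH1 and a probe set without a single gene, all with GC-1 below T3.

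Among the 806 raised probe sets GC-1 was below T3 in 683 (84.7%), above in 121 and equal in 2, where 52.0% of all probe sets had GC-1 below T3. The median change from vehicle over these probe sets was 0.33 with T3 and 0.25 with GC-1, and the summed GC-1 changes came to 78.6% of the summed T3 changes. All 3 GC-1 arrays lay below all 3 T3 arrays in 317 of the 806 and above them in 14. The 95% interval of the difference lay below 0 in 230 and above 0 in 7. The share was similar for large and small responses, at 82 of 95 probe sets raised at least 1.5-fold and 601 of 711 raised less.

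Averaged over the 806 raised probe sets, the 3 T3 arrays stood 0.40, 0.38 and 0.41 above the vehicle mean and the 3 GC-1 arrays 0.33, 0.31 and 0.30. The groups did not overlap in this average, and T3 replicate 3 was the highest of all. Of the 806, 429 belonged to the brightest class of probe sets, in which GC-1 was lower as a rule. After quantile normalization GC-1 was below T3 in 594 of the same 806 (73.7%).

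The 422 lowered probe sets showed no such tilt. GC-1 was above T3, which is the side of the smaller decrease, in 198 (46.9%) and below in 224, and the summed GC-1 changes were 100.7% of the summed T3 changes. The averages over the T3 arrays were -0.24, -0.23 and -0.34, and those over the GC-1 arrays were -0.29, -0.27 and -0.26, so the groups overlapped, with T3 replicate 3 lowest of all. In this average every GC-1 array lay below T3 replicates 1 and 2 and above T3 replicate 3. The direction for these probe sets thus depended on which T3 arrays were used. With the interquartile range of the arrays as a covariate, GC-1 was above T3 in 90.3% of the probe sets then called lowered. With T3 replicates 1 and 2 left out, the median of GC-1 minus T3 over the lowered probe sets was 0.13. Both settings chose those probe sets anew and lean for T3 on replicate 3. A low value there favours the choice, so neither figure speaks for the 422.

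How the responsive probe sets were chosen also mattered. Chosen on T3 against vehicle alone, a choice made after seeing the data, 888 were raised and GC-1 was below T3 in 92.2% of them, while 334 were lowered and GC-1 was above T3 in 81.4%. Chosen on GC-1 against vehicle alone, 403 were raised and GC-1 was below T3 in 76.7%, while 219 were lowered and GC-1 was above T3 in 21.5%. The direction among raised probe sets was therefore the same under each choice, and that among lowered ones was not.

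**Figure D2:**
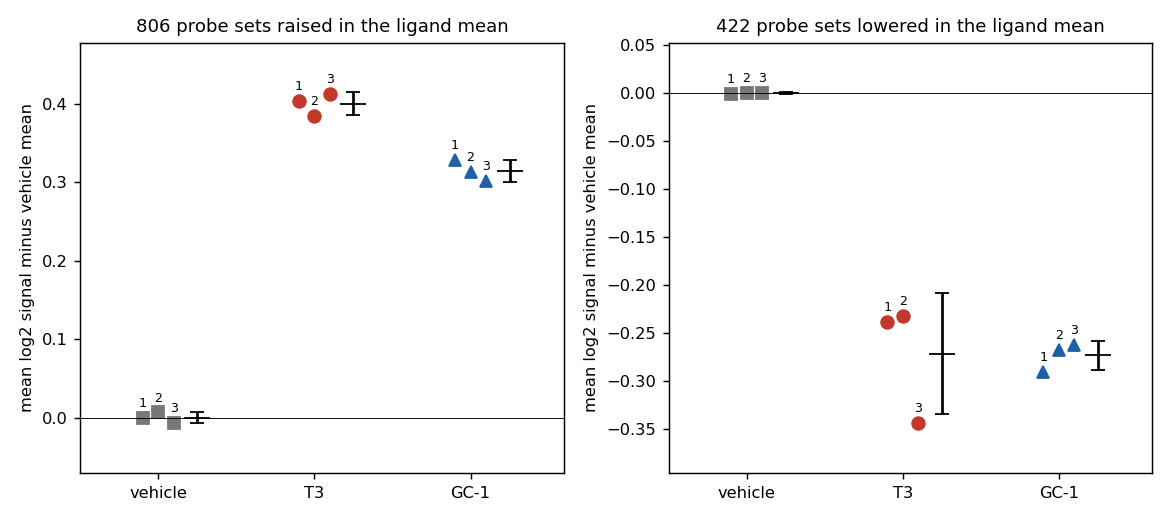
Mean log2 signal minus the vehicle mean on each of the 9 arrays, over the 806 probe sets raised (left) and the 422 lowered (right) in the ligand mean, with numbers for replicates and bars for the mean ± SD of 3 arrays. On the left the T3 arrays lie at 0.38 to 0.41 above all GC-1 arrays at 0.30 to 0.33, and on the right the groups overlap.

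The 10 genes with the largest increases in the ligand mean were G6PC1, ANGPTL8, GSTA1, SCNN1A, TNFSF10, PCK1, UGT2B4, CPT1A, HAMP and KLF9. G6PC1, the phosphatase that releases glucose from the liver cell, measured 9.40, 9.18 and 9.35 with T3 and 9.08, 8.77 and 8.65 with GC-1, against 6.68 to 7.13 with vehicle. All GC-1 values lay below all T3 values, and the difference was -0.48 (95% interval -0.75 to -0.20, adjusted p = 0.206 in limma). PCK1, which encodes the cytosolic enzyme that commits carbon to glucose synthesis, measured 10.81, 10.75 and 10.47 with T3 and 10.35, 10.29 and 10.20 with GC-1, from 9.04 to 9.36 with vehicle. The GC-1 arrays again lay below, by -0.39 (interval -0.61 to -0.17), and this difference passed only without T3 replicate 3 (-0.50, adjusted p = 0.0401 in limma), the T3 array nearest to the GC-1 values. With T3 replicates 1 and 2 left out the difference in PCK1 was -0.18, and with the interquartile range as covariate it was -0.097 (adjusted p = 0.787 in limma).

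CPT1A, the enzyme that admits fatty acids to mitochondria, measured 9.28, 9.16 and 9.28 with T3 and 8.99, 8.99 and 9.05 with GC-1, from 7.85 to 7.97 with vehicle. The difference was -0.23 (interval -0.35 to -0.11), and all 4 probe sets of CPT1A had GC-1 below T3. HAMP, the iron-regulating hormone hepcidin, measured 10.01, 9.97 and 9.92 with T3 and 9.83, 9.70 and 9.66 with GC-1, a difference of -0.24 without overlap. TNFSF10, the death ligand TRAIL, differed by -0.17 (interval -0.30 to -0.04), with all 3 of its probe sets lower with GC-1 at an unadjusted p under 0.05. GSTA1, a glutathione transferase, differed by -0.24, but its other probe set differed by 0.17.

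Some of the strongest responses were matched more closely. UGT2B4, which conjugates bile acids and steroids, measured 7.36, 7.35 and 7.45 with T3 and 7.37, 7.35 and 7.41 with GC-1. These values interleaved, and the interval of the difference was -0.18 to 0.16. KLF9, a Krüppel-like factor that T3 is known to induce directly, measured 7.35, 7.72 and 7.34 with T3 and 7.52, 7.33 and 7.44 with GC-1, an overlap with an interval of -0.26 to 0.18. SCNN1A, the alpha chain of the ENaC channel, differed by -0.11 (interval -0.26 to 0.03), and its 3 probe sets ran from -0.22 to 0.04. GC-1 was below T3 in all 10 of the genes with the largest increases in the ligand mean, without overlap in 8, but in UGT2B4 and KLF9 the sign turned under several settings, quantile normalization among them for UGT2B4.

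The 6 genes with the largest decreases divided. CEMIP, which takes part in the breakdown of hyaluronan, measured 8.55, 8.64 and 8.52 with T3 and 8.80, 8.93 and 8.79 with GC-1, from 9.47 to 9.55 with vehicle. Its decrease was smaller with GC-1 on every array, by 0.27 (interval 0.14 to 0.40, adjusted p = 0.176 in limma). HS3ST3A1, a heparan sulfate sulfotransferase, was 0.29 higher with GC-1 (interval 0.10 to 0.48) and SLC2A1, the glucose transporter GLUT1, was 0.14 higher (interval 0.03 to 0.24), both without overlap. TENT5A, the transcription factor GATA6 and the surface protein CD24 overlapped between the ligands, with differences of -0.02, 0.05 and -0.02 whose signs turned under some settings. The interval for GATA6 was wide, from -0.22 to 0.32, so a difference of modest size in that gene cannot be seen with these arrays.

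**Figure D3:**
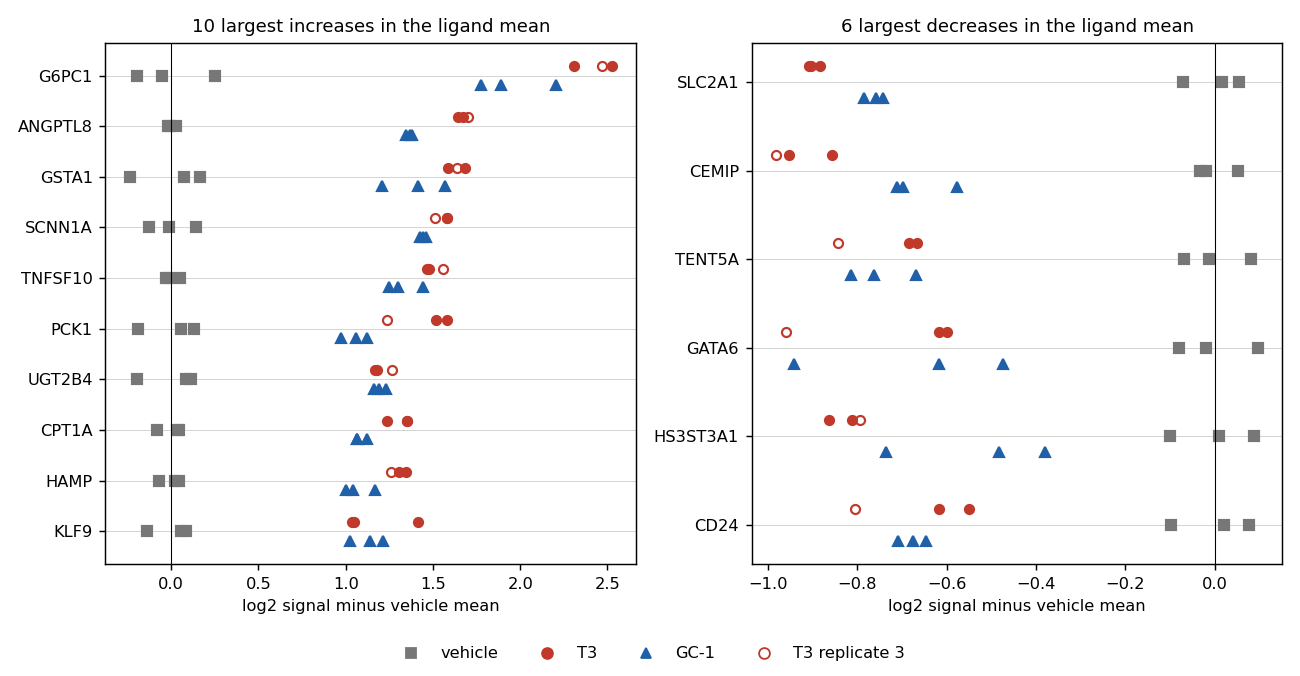
Log2 signal minus the vehicle mean (horizontal axis) on each array for the 10 genes with the largest increases (left) and the 6 with the largest decreases (right) in the ligand mean, with squares for vehicle, circles for T3 (open for T3 replicate 3) and triangles for GC-1. The GC-1 triangles lie left of all T3 circles in 8 of the 10 increases and right of them in 3 of the 6 decreases.

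The genes with the smallest p in each direction, among those without overlap between the ligands, were examined next. Those lower with GC-1 were led by ANGPTL8, a secreted liver protein that restrains lipoprotein lipase. It measured 10.11, 10.08 and 10.14 with T3 and 9.80, 9.82 and 9.78 with GC-1, from 8.42 to 8.46 with vehicle. The replicates were tight and the groups lay well apart, with a difference of -0.31 ± 0.05 (SE, n = 3 per group; interval -0.41 to -0.21, adjusted p = 0.143 in limma), against a T3 range of 0.06. With the trend and robust options the adjusted p was 0.0131 in limma, and without T3 replicate 3 it was 0.0346. ANGPTL4, a relative that inhibits the same lipase, differed by -0.31 as well (adjusted p = 0.176 in limma), after increases of 1.02 with T3 and 0.70 with GC-1.

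HAL, which starts the breakdown of histidine, had the largest difference of the 12 lower genes. It measured 8.37, 8.66 and 8.28 with T3 and 7.87, 7.89 and 7.96 with GC-1, from 7.43 to 7.62 with vehicle. The GC-1 arrays stood between vehicle and T3, and the difference of -0.53 (interval -0.73 to -0.34) amounted to 1.45-fold. Its second probe set had a smaller difference of -0.22. AASS, of lysine breakdown, measured 6.91, 6.88 and 6.68 with T3 and 6.52, 6.43 and 6.50 with GC-1, where vehicle lay at 6.50 to 6.59, so only T3 stood clear of vehicle. The other probe set of AASS differed by -0.090.

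Among the 12 lower genes, ADM, NDRG1 and EPO are known to respond to low oxygen, a grouping made after the values were seen. How many of all genes share that trait was not counted. ADM, the vasodilator peptide adrenomedullin, measured 9.78, 9.88 and 9.75 with T3 and 9.48, 9.49 and 9.50 with GC-1, from 9.18 to 9.26 with vehicle. The groups were clear of each other and of vehicle, and the difference was -0.31 (interval -0.42 to -0.20, adjusted p = 0.163 in limma, 0.0131 with the trend and robust options). NDRG1, a stress-induced cytoplasmic protein, measured 10.57, 10.57 and 10.60 with T3 and 10.35, 10.32 and 10.32 with GC-1, a difference of -0.25 against a T3 range of 0.03. EPO, the red cell hormone erythropoietin, measured 7.92, 8.001 and 8.006 with T3 and 7.63, 7.60 and 7.77 with GC-1, where vehicle lay at 7.56 to 7.64. T3 raised EPO by 0.38 (adjusted p = 0.00309 in limma), while the GC-1 change was 0.07 (adjusted p = 0.640), and the difference between them was -0.31 (adjusted p = 0.175).

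The other 6 lower genes varied in role. EMILIN1, a glycoprotein of elastic fibres, measured 6.79, 6.82 and 6.79 with T3 and 6.44, 6.55 and 6.49 with GC-1, a difference of -0.31 against a T3 range of 0.03. FAM13A differed by -0.32, and its 3 probe sets all gave an unadjusted p under 0.05 in the same direction. PPP4R3B, a regulatory subunit of protein phosphatase 4, was the exception in that GC-1 and not T3 stood apart from vehicle, at -0.36 (adjusted p = 0.00331 in limma) against -0.09 (adjusted p = 0.374). CIRBP, a cold-inducible RNA-binding protein, BEST1, a chloride channel, and DRAP1, a corepressor of transcription, lay above vehicle with T3 and below it with GC-1.

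Promoter windows from RefSeq (assembly GRCh38.p14, 300 bases around the annotated start) are shown for the strongest response, G6PC1, for ANGPTL8 as the lower gene with the smallest p, for CEMIP as a decrease that was smaller with GC-1, and for ADM from the low-oxygen group, the last of these chosen after values were seen. The deposited values name no genome build, and the coordinates are those of RefSeq. The windows, all on the plus strand, are chr17:42900549-42900848 for G6PC1, chr19:11239369-11239668 for ANGPTL8, chr15:80779120-80779419 for CEMIP and chr11:10304823-10305122 for ADM. Capitals mark AGGTCA, the hexamer that thyroid hormone receptors and many other nuclear receptors bind, and ACGTG or GCGTG, the core of the element bound by hypoxia-inducible factors, each searched on both strands.
G6PC1: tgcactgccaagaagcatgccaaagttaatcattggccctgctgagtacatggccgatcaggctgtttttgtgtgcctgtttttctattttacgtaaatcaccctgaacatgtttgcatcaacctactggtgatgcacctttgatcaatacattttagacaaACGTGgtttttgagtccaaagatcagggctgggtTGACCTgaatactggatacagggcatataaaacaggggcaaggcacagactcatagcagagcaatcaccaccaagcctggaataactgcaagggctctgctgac
ANGPTL8: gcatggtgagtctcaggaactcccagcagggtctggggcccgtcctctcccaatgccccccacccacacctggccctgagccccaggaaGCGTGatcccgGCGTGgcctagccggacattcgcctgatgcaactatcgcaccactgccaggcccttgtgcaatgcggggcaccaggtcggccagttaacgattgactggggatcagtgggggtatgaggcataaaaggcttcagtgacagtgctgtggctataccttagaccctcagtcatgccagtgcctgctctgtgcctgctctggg
CEMIP: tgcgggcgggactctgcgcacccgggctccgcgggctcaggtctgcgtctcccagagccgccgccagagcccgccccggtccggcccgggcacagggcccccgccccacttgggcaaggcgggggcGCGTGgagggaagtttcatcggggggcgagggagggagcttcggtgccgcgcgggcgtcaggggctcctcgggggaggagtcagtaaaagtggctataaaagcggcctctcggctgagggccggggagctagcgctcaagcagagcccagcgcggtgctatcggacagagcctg
ADM: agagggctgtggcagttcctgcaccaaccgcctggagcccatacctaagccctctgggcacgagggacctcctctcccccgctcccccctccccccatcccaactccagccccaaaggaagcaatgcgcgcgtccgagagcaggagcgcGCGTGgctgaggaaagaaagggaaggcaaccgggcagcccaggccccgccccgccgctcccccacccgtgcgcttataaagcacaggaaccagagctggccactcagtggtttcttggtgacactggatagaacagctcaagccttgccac

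G6PC1 held that hexamer on its minus strand (TGACCT) 54 bases before the start and ACGTG 88 bases before it. ANGPTL8 held GCGTG at 161 and 150 bases before the start, CEMIP at 124 and ADM at 101, and none of these 3 windows held AGGTCA. Of all 35116 RefSeq promoter windows 13.83% held AGGTCA and 48.45% held ACGTG or GCGTG. Of the 12 lower genes 9 had windows, 10 in all, of which 2 held AGGTCA and 8 held ACGTG or GCGTG. Of the 12 higher genes 10 had windows, 19 in all, of which 2 and 10 did. A match is a description of these letters only.

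The 12 genes higher with GC-1 were dimmer, with a median mean signal of 6.27 against 7.86 for the lower 12, and differed by 0.28 to 0.42, which is 1.22-fold to 1.34-fold. In all 12 the T3 mean lay below vehicle. T3 lowered 6 of them at an adjusted p under 0.05, and GC-1 changed 0 of them (limma). Of all probe sets T3 lowered 1.5% and GC-1 changed 2.8%. The rule that chose the 12 favours low T3 values. The T3 means and these counts are therefore no evidence of a T3 effect that GC-1 lacks. SLC4A4, a sodium bicarbonate cotransporter, had the smallest p and measured 7.10, 7.10 and 7.19 with T3 and 7.51, 7.55 and 7.45 with GC-1, from 7.30 to 7.38 with vehicle. The T3 arrays lay below vehicle and the GC-1 arrays above it, a difference of 0.37 ± 0.05 (SE, n = 3 per group; interval 0.25 to 0.48, adjusted p = 0.143 in limma, 0.0288 with the trend and robust options). Of its 4 probe sets only this one had an unadjusted p under 0.05, and the others went down to -0.20. This probe set is of a type that can bind several transcripts.

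EXPH5, an effector of vesicle transport, measured 6.12, 5.998 and 6.03 with T3 and 6.55, 6.39 and 6.37 with GC-1, where vehicle lay at 6.31 to 6.56. GC-1 stayed within the vehicle range or near it and T3 lay below it, for a difference of 0.39 (interval 0.23 to 0.55). The 3 probe sets of EXPH5 ran from 0.054 to 0.39, and 1 had an unadjusted p under 0.05. OLFML2A, a secreted matrix protein, and GNRHR, the receptor for gonadotropin-releasing hormone, differed by 0.38 each, and the uncharacterised LOC101929550 by 0.39. The 3 probe sets of GNRHR ran from 0.020 to 0.38, and 1 had an unadjusted p under 0.05. The largest differences were in HTN1, a salivary peptide gene, at 0.42 and in DPF3, a subunit of the BAF chromatin remodeller, at 0.42. In DPF3 the T3 arrays were scattered, at 6.11, 6.45 and 6.36, while the GC-1 arrays lay at 6.72, 6.76 and 6.71.

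GLRB, the beta subunit of the glycine receptor, measured 5.35, 5.34 and 5.36 with T3 and 5.57, 5.65 and 5.77 with GC-1, a difference of 0.32 against a T3 range of 0.02. The other probe set of GLRB differed by 0.022. APAF1, the core of the apoptosome, differed by 0.28 in the probe set used, while its other 2 probe sets had the opposite sign. FGD2, an activator of Cdc42, differed by 0.29, the noncoding transcript LINC01587 by 0.34 and PRAMEF12 by 0.34. The differences of all 24 genes exceeded the range of the 3 T3 arrays, which the rule that chose them favours. Without T3 replicate 3, 10 of the 12 higher and 10 of the 12 lower genes passed an adjusted p of 0.05 in limma. With the trend and robust options 1 and 6 did. Of all probe sets 1.52% and 0.099% passed in these 2 settings. The genes were chosen by the smallest p of the same contrast, so their counts are not independent support.

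**Figure D4:**
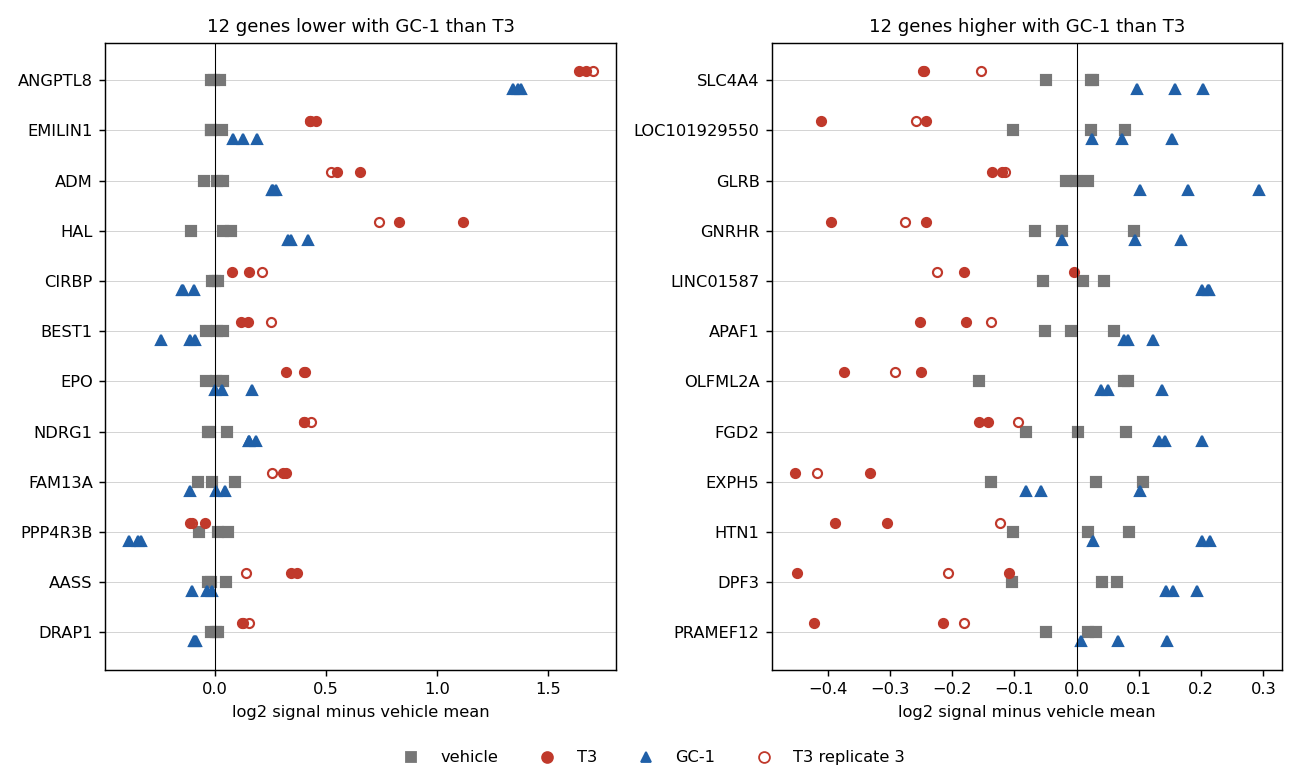
Log2 signal minus the vehicle mean (horizontal axis) on each array for the 12 genes lower (left) and the 12 higher (right) with GC-1 that had the smallest p among genes without overlap, with squares for vehicle, circles for T3 (open for T3 replicate 3) and triangles for GC-1. On the left ANGPTL8 stands furthest from vehicle with both ligands, and on the right every T3 mean lies below vehicle.

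In a small number of genes T3 and GC-1 stood on opposite sides of vehicle with no overlap of any group. GC-1 lay above and T3 below in 25 genes (0.209%), and the reverse held in 29 (0.242%). TIMP1, an inhibitor of metalloproteinases, measured 10.02, 10.08 and 10.00 with T3, 10.10 to 10.18 with vehicle, and 10.29, 10.23 and 10.24 with GC-1. The difference between the ligands was 0.22 (adjusted p = 0.176 in limma, 0.0493 with the trend and robust options), and neither ligand passed against vehicle. CIRBP measured 10.71, 10.63 and 10.76 with T3, 10.54 to 10.56 with vehicle, and 10.40, 10.46 and 10.41 with GC-1, a difference of -0.28, and its other probe set differed by -0.22. The departures from vehicle were 0.15 with T3 and -0.13 with GC-1 in CIRBP, small against the responses of the genes above.

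In the probe sets used, the receptor genes overlapped between the ligands. THRA measured 6.97, 6.98 and 6.93 with T3 and 6.89, 7.02 and 6.97 with GC-1, with an interval of the difference from -0.11 to 0.12. The 4 probe sets of THRA ran from -0.04 to 0.18, and 1 of them was higher with GC-1 at an unadjusted p under 0.05. THRB measured 7.68, 7.04 and 7.09 with T3 and 7.02, 7.04 and 7.14 with GC-1, an overlap in which 1 T3 array stood high. RXRA, the retinoid partner, differed by -0.11 (interval -0.27 to 0.04). Of 18 receptors, partners and coregulators measured, 0 were higher and 2 lower with GC-1 at an unadjusted p under 0.05, where 7.53% and 6.53% of all genes were. These were the coactivators EP300 (-0.17) and PRMT1 (-0.12). The shares of all genes given here and below take in every signal level and do not allow for brightness. At that p 40 probe sets were higher and 602 lower in the brightest class, and 232 and 528 in the third. The median signal was 8.36 for this list and 7.52 for all genes. The part of brightness in the counts of the lists was not tested.

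Genes of hormone uptake, binding and deiodination, 19 measured, held 2 higher and 1 lower at that p. ITGB3, a subunit of the integrin that binds thyroid hormone at the cell surface, was 0.18 higher with GC-1. Its 7 probe sets ran from -0.093 to 0.18, and only 1 was higher at that p. SULT1E1, a sulfotransferase, was 0.16 higher, and SLC7A5, an amino acid transporter that also carries thyroid hormone, differed by -0.10. DIO1, the deiodinase that is a classic target in liver, measured 8.94, 9.02 and 9.02 with T3 and 8.96, 8.88 and 8.95 with GC-1. The ligands overlapped in DIO1, with an interval of -0.19 to 0.06, after increases of 0.73 with T3 and 0.66 with GC-1. HR, a corepressor gene known as a target in other tissues, overlapped as well (interval -0.24 to 0.16).

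Among 30 measured thyroid hormone targets, 4 were higher and 10 lower with GC-1 at an unadjusted p under 0.05, where 7.53% and 6.53% of all genes were. The median difference of the list was -0.06, where that of all 11963 genes was -0.01. Its median signal was 8.49, above the 7.52 of all genes. After quantile normalization the list's median was -0.05. The ligand mean raised 11 of the targets and lowered 2, where it changed 6.39% of all genes, raising 4.16% and lowering 2.23%. The list was drawn up with earlier results of these data known, so its larger share is not evidence about the targets. All 11 raised targets had GC-1 below T3, as did 434 of the 498 genes raised in all. The lower ones included, beside those above, FASN, the fatty acid synthase, at -0.14, and coagulation factor F10 at -0.19. The higher ones were SLC2A1, ME1, the malic enzyme that supplies reducing power for lipid synthesis, at 0.24 (-0.038 with the interquartile range as covariate), the growth factor TGFA at 0.16, and CYP7A1, the rate-limiting enzyme of bile acid synthesis, at 0.18. Against vehicle CYP7A1 was at 0.00 with T3 (adjusted p = 0.995 in limma) and at 0.18 with GC-1 (adjusted p = 0.195). CYP7A1 lay near the low end of the scale, at 4.265, 4.231 and 4.149 with T3 and 4.408, 4.496 and 4.271 with GC-1. ME1 and CYP7A1 both fell in the dimmest class, where 645 probe sets were higher and 122 lower at an unadjusted p under 0.05.

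Gluconeogenesis and glucose handling had a median of -0.09 over 26 genes, with a median signal of 8.28 against 7.52 for all genes. At an unadjusted p under 0.05, 1 was higher and 7 lower with GC-1, where 7.53% and 6.53% of all genes were. PCK2, the mitochondrial form of PCK1, measured 10.92, 10.90 and 10.92 with T3 and 10.74, 10.75 and 10.70 with GC-1, a difference of -0.18 against a T3 range of 0.02. Of 9 members raised in the ligand mean 8 had GC-1 below T3, near the 434 of 498 among all raised genes. After quantile normalization the median was -0.05.

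Lipid lists had medians below 0 whose size depended on the normalization and on single T3 arrays. Their counts at an unadjusted p under 0.05 stand beside 7.53% higher and 6.53% lower among all genes. Their median signals ran from 8.84 to 10.22, in the brightest class, where 40 probe sets were higher and 602 lower at that p. Fatty acid synthesis and its regulators, 15 measured, had 1 higher and 3 lower and a median of -0.06 (-0.026 after quantile normalization), with PNPLA3, a lipid droplet enzyme, at -0.19. The carnitine shuttle and beta-oxidation, 20 measured, had 0 higher and 3 lower and a median of -0.05 (-0.013 after quantile normalization and -0.023 without T3 replicate 1), with the isomerases ECI1 at -0.20 and ECI2 at -0.11 beside CPT1A. Lipoprotein and bile export, 23 measured, had 1 higher and 6 lower and a median of -0.06 (-0.046 after quantile normalization and -0.015 without T3 replicate 3). APOC3, an apolipoprotein of triglyceride-rich particles, measured 12.47, 12.44 and 12.56 with T3 and 12.27, 12.30 and 12.28 with GC-1, a difference of -0.21 (adjusted p = 0.198 in limma, 0.0239 with the trend and robust options). Cholesterol synthesis and uptake, 16 measured, had 1 higher and 0 lower, and its median of -0.04 became 0.0010 after quantile normalization and -0.019 without T3 replicate 3. The 1 higher gene was INSIG1, which holds back sterol synthesis, at 0.28. The ligands overlapped in INSIG1, its probe sets ran from -0.094 to 0.28, and the difference was -0.056 with the interquartile range as covariate.

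Plasma proteins made by hepatocytes formed a further group, with counts at an unadjusted p under 0.05 beside 7.53% higher and 6.53% lower among all genes. Median signals were 9.56 for coagulation, 8.32 for complement and 9.65 for acute phase genes, against 7.52 for all genes. Among all genes raised in the ligand mean 434 of 498 had GC-1 below T3, a share near those of the lists here. Coagulation and fibrinolysis had 1 higher and 3 lower of 26 and a median of -0.08 (-0.05 after quantile normalization). Of its 12 members raised in the ligand mean 11 had GC-1 below T3. F7, coagulation factor VII, measured 8.40, 8.31 and 8.47 with T3 and 8.11, 8.16 and 8.23 with GC-1, a difference of -0.23 without overlap. Complement had 0 higher and 5 lower of 24 and a median of -0.08 (-0.046 after quantile normalization and -0.045 without T3 replicate 1), again with 11 of 12 raised members lower with GC-1. SERPING1, the inhibitor of complement C1, differed by -0.22. Acute phase genes had 1 higher and 4 lower of 26 and a median of -0.07 (-0.040 after quantile normalization), with all 9 raised members lower with GC-1. The 1 higher gene was the chemokine CXCL2, at a low signal, with 4.65, 4.32 and 4.39 on the T3 arrays and 4.82, 4.81 and 4.78 on the GC-1 arrays. GC-1 raised CXCL2 by 0.38 (adjusted p = 0.0282 in limma), and the difference of 0.35 from T3 had an adjusted p of 0.176.

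Hypoxia and glycolysis genes had 1 higher and 8 lower of 28 at an unadjusted p under 0.05, where 7.53% and 6.53% of all genes were. The median was -0.06, or -0.02 after quantile normalization. The median signal was 10.58, in the brightest class, where 40 probe sets were higher and 602 lower at that p. Of 12 members raised in the ligand mean 11 had GC-1 below T3, near the 434 of 498 among all raised genes. VEGFA, the vascular growth factor, measured 10.59, 10.57 and 10.62 with T3 and 10.41, 10.38 and 10.33 with GC-1, from 10.12 to 10.18 with vehicle. Its difference was -0.22 (adjusted p = 0.176 in limma, 0.0375 with the trend and robust options), and all 4 of its probe sets had GC-1 below T3. LOX, the lysyl oxidase that crosslinks collagen, differed by -0.19 in the probe set used and by -0.32 in another. The 1 higher gene was SLC2A1, which fell with both ligands. HIF1A, which encodes the oxygen-regulated transcription factor, differed by 0.11 (unadjusted p = 0.104 in limma).

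**Figure D5:**
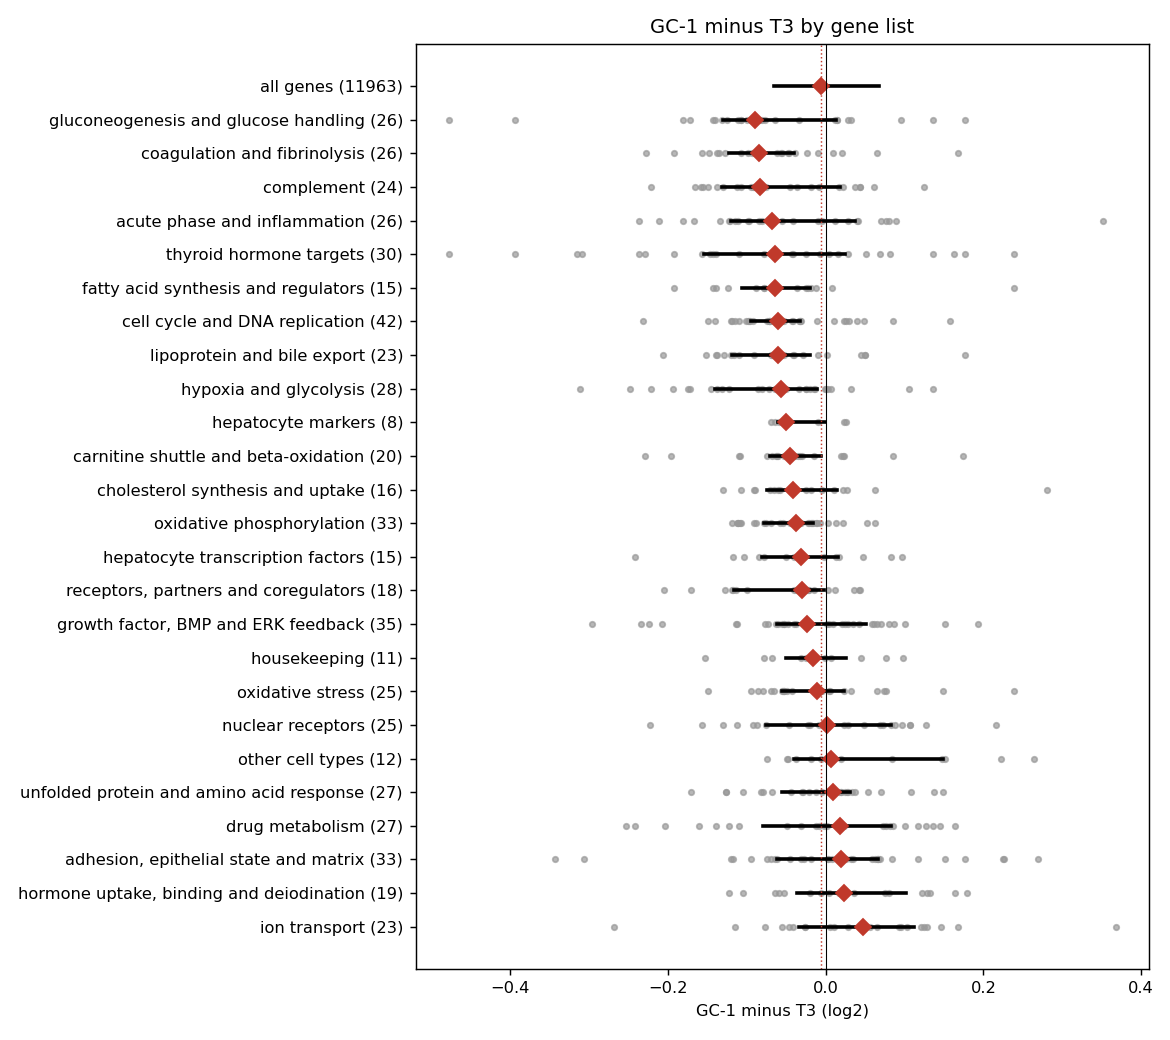
GC-1 minus T3 (log2, horizontal axis) for the members of 25 gene lists, with grey points for genes, diamonds for medians, bars for the middle 50% of values, the number measured in brackets and a dotted line at the median of all genes. Medians run from -0.09 for gluconeogenesis and glucose handling to 0.05 for ion transport, and the bars of most lists cross 0 or lie within 0.15 of it.

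Lists with members higher with GC-1 were fewer, and their counts at an unadjusted p under 0.05 stand beside 7.53% higher and 6.53% lower among all genes. Ion transport had 3 higher and 1 lower of 23 and a median of 0.05, the same after quantile normalization and 0.020 without T3 replicate 1, and its higher members were SLC4A4 and the carbonic anhydrases CA2 (0.17) and CA12 (0.15). The lower one was the chloride exchanger SLC26A3, at -0.27. Adhesion, epithelial state and matrix had 5 higher and 2 lower of 33 and a median of 0.020 (0.030 after quantile normalization and 0.012 without T3 replicate 3). The higher members were CEMIP, TIMP1, the protease inhibitor SERPINE2 (0.23), the integrin subunit ITGA5 (0.18) and the metalloproteinase MMP14 (0.15), and the lower ones were EMILIN1 and CDH1. CDH1, or E-cadherin, measured 8.66, 8.75 and 8.23 with T3 and 8.11, 8.18 and 8.32 with GC-1, so T3 replicate 3 lay inside the GC-1 range.

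Cell cycle and DNA replication genes had 0 higher and 4 lower of 42 at an unadjusted p under 0.05, where 7.53% and 6.53% of all genes were. Their median was -0.06, which was -0.02 after quantile normalization. Their median signal was 9.86, in the brightest class, where 40 probe sets were higher and 602 lower at that p. The part of brightness in these counts was not tested. CDC20, an activator of the anaphase-promoting complex, measured 9.81, 9.77 and 9.69 with T3 and 9.46, 9.52 and 9.58 with GC-1. CDC20 fell by 0.24 with GC-1 (adjusted p = 0.0424 in limma), its change with T3 was -0.01 (adjusted p = 0.923), and the difference of -0.23 between them had an adjusted p of 0.197. MCM5, a subunit of the replicative helicase, and AURKB, a mitotic kinase, differed by -0.14 and -0.12. Of 7 members lowered in the ligand mean 1 had GC-1 above T3.

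The remaining lists are given by their counts at an unadjusted p under 0.05, beside 7.53% higher and 6.53% lower among all genes. Their median signals ran from 7.32 for drug metabolism to 11.61 for oxidative phosphorylation. Growth factor, BMP and ERK feedback genes had 1 higher and 4 lower of 35, led by the IGF-binding proteins IGFBP3 (-0.30) and IGFBP4 (0.19), which went opposite ways. The other probe set of IGFBP3 differed by -0.015. Drug metabolism had 2 higher and 5 lower of 27, and the lower ones included the fatty acid hydroxylases CYP4F2 (-0.25), CYP4F3 (-0.20) and CYP4F12 (-0.16), near-identical genes among which probes may be shared. Nuclear receptors had 1 higher and 2 lower of 25. RORA, an orphan receptor of circadian and lipid control, differed by -0.22 in the probe set used and by -0.36 in its other one. Hepatocyte transcription factors had 0 higher and 2 lower of 15, among them CEBPA at -0.12. Oxidative phosphorylation had 0 and 2 of 33, the unfolded protein and amino acid response 0 and 3 of 27, and oxidative stress genes 1 and 0 of 25.

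Genes that bear on the cell population were read in the same way. Of 11 housekeeping genes 0 were higher and 1 lower, with GAPDH at -0.02 (interval -0.13 to 0.08). Of 8 hepatocyte markers 0 passed in either direction in their brightest probe set, with ALB at 0.02. The 3 probe sets of ALB ran from -0.07 to 0.34, with 1 higher at an unadjusted p under 0.05. The 4 of TF ran from -0.31 to -0.06, with 1 lower at that p. Of 12 markers of other cell types 3 were higher with GC-1 at an unadjusted p under 0.05, where 7.53% of all genes were, the T cell gene CD3E (0.26), the leukocyte gene PTPRC (0.15) and the fibroblast gene DCN (0.22). CD3E passed without T3 replicate 3 (0.36, adjusted p = 0.0439 in limma), and DCN overlapped between the ligands and was at -0.074 with the interquartile range as covariate. The summed linear signal of all 12 markers was 3333 to 3561 on the T3 arrays, 3453 to 3575 on the GC-1 arrays and 3600 to 3814 on the vehicle arrays. This sum leans on the brightest marker, whose mean was 11.11. PTPRC lay at 4.86 to 4.94 with T3 and 4.99 to 5.09 with GC-1, near the low end of the scale, and only 1 of its 3 probe sets had GC-1 above T3. The part of other cells in the results was not tested.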

How the data were processed

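The authors deposited a log2 signal for each probe set on each array. The method was RMA (version not stated), per the submitters' processing notes. The log base was inferred from the range of 3.15 to 14.54. RMA compresses dim signals, so differences of dim genes may be understated. No scanner files were used, so detection was not examined. Of the probe sets 62 array controls were left out. The annotation gave 1 symbol for 19064, several for 1043 and none for 2108, and 19052 matched the reference gene table. A gene was represented by its single-symbol probe set with the highest mean. THRSP had none.

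Group means of the 9 arrays were fitted with limma 3.58.1 (lmFit, eBayes, two-sided) in R 4.3.3. The Benjamini-Hochberg adjustment ran over all 22215 probe sets, and 1 pair of ligands was compared. Lists were described by counts and medians and not tested as sets. Named genes were the 12 with the smallest p in each direction without overlap, the 10 largest increases and 6 largest decreases in the ligand mean, a fixed panel, and up to 3 genes of each of 25 lists with the smallest p. Further list members are named to say which genes a count holds. Members and lists were chosen with earlier results of these data known. The fits were tested on simulated data. Alternatives were other normalizations, a filter on dim probe sets, array weights, the trend and robust options, covariates, a replicate block and leaving out arrays.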

Additional observations from a re-analysis of the deposited data

Results flagged for a closer look

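In 9 named genes the T3 and GC-1 arrays stood on opposite sides of the vehicle arrays with no overlap of any group, and they are given here for that reason. GC-1 minus T3 was positive, with GC-1 above and T3 below vehicle, in SLC4A4 (0.37), GLRB (0.32), APAF1 (0.28), FGD2 (0.29), DPF3 (0.42) and TIMP1 (0.22). It was negative, with GC-1 below and T3 above vehicle, in CIRBP (-0.28), BEST1 (-0.32) and DRAP1 (-0.22). The difference between the ligands was tested in limma, and its adjusted p lay between 0.143 and 0.176 in these genes. Of the 9, SLC4A4, CIRBP and TIMP1 passed with the trend and robust options, where 0.099% of all probe sets did. They were named for a small p in the same contrast, which favours this. Against vehicle, T3 passed in SLC4A4 alone and GC-1 in 0 of the 9. The same pattern was seen in 0.209% of genes with GC-1 above vehicle and in 0.242% with GC-1 below.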

How the results depend on the processing

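Of 108 named genes 90 kept the sign of GC-1 minus T3 in every other setting run for them, which were 17 to 19 a gene. The count of probe sets called between the ligands was 0 as designed, with 3122 at an unadjusted p under 0.05 in limma, and 22 with the trend and robust options. It was 0 to 338 when 1 array was left out, and 338 came from leaving out T3 replicate 3.

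Over the responsive probe sets the median difference, signed by the response, was -0.06. It was -0.16 with the interquartile range as covariate, -0.13 with T3 replicates 1 and 2 left out, and -0.082 to -0.045 with 1 array left out. It was -0.11 for probe sets chosen on T3 alone and -0.024 for those chosen on GC-1 alone, choices made after seeing the data. Of 1228 responsive probe sets 1223 (99.6%) had an interval inside 1.5-fold. This was 2365 of 2629 (89.96%) with the covariate and 2397 of 2468 (97.1%) with T3 replicates 1 and 2 left out. It was 2058 of 2061 with the trend and robust options and 619 of 622 for those chosen on GC-1 alone. With 1 array left out it was 578 to 1393, out of 582 to 1405 responsive probe sets, a share of 99.1% to 99.7%. That range of counts followed the number of responsive probe sets, which differed between these fits.

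Same-numbered T3 and GC-1 arrays deviated from their group means with correlations of -0.07, 0.08 and -0.26. Differently numbered ones ran from -0.30 to 0.29. The values gave no sign of pairing by number, but so few arrays cannot exclude it. A fit with the replicate block called 0 probe sets, with 2710 at an unadjusted p under 0.05, and had 740 of 745 responsive probe sets inside 1.5-fold.

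Signs turned in 18 named genes, whose differences as designed reached 0.28 in size. With the covariate the values were 0.048 in KLF9, 0.13 in TENT5A, 0.20 in CD24, 0.19 in THRB, 0.096 in RXRA, 0.10 in HR, -0.12 in ALB, -0.038 in ME1, -0.056 in INSIG1, 0.14 in PROX1, 0.036 in CEBPG, 0.027 in IGF1R, -0.061 in ESR1, 0.0093 in GUSB and -0.074 in DCN. With T3 replicates 1 and 2 left out they were 0.088 in KLF9, 0.095 in TENT5A, 0.13 in CD24, 0.015 in RXRA, 0.049 in HR, -0.071 in ALB and 0.00067 in PROX1. After quantile normalization they were 0.0040 in UGT2B4, 0.035 in TENT5A, 0.035 in CD24 and -0.018 in THRA. With array weights the value was 0.0076 in UGT2B4. With median centring it was -0.013 in THRA. Over the mean of all probe sets of a gene they were 0.0023 in CD24 and 0.0053 in HR. With 1 array left out the values ran from -0.026 to 0.023 in UGT2B4, -0.11 to 0.082 in KLF9, -0.074 to 0.015 in TENT5A, -0.070 to 0.18 in GATA6, -0.093 to 0.036 in CD24, -0.027 to 0.038 in THRA, -0.10 to 0.051 in HR and -0.015 to 0.070 in ALB. The cause was not tested.

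The number of arrays limits the precision, and signal over background was not examined. The covariate and the fit without T3 replicates 1 and 2 rest for T3 largely on replicate 3, which is then assumed to vary like the other groups. Both also choose the responsive probe sets anew, and the choice favours a large response on that replicate.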

Other observations

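Some genes called with limma's trend and robust options were not part of the groups above and are named here after their values were seen. TNNI2, a troponin subunit, measured 12.10, 12.08 and 12.22 with T3 and 11.90, 11.90 and 11.87 with GC-1, from 11.68 to 11.77 with vehicle, a difference of -0.25. FOXN3, a forkhead repressor of hepatic gene expression, differed by -0.27 in the probe set called. In the other direction, SCN3B, a sodium channel subunit, measured 5.05, 5.14 and 5.06 with T3 and 5.61, 5.45 and 5.63 with GC-1, from 5.36 to 5.46 with vehicle, a difference of 0.48. LMOD1, an actin-binding protein of smooth muscle, differed by 0.43 in the probe set called, and N4BP1, an inhibitor of ubiquitin signalling, by 0.24. Of these 5, FOXN3, SCN3B and LMOD1 were called in a probe set other than their brightest.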
